A study of Mus musculus with 30 samples.

Results

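The genes described here are 10 inflammatory CC chemokines that the scavenging receptor D6 binds, Ccl2, Ccl3, Ccl4, Ccl5, Ccl7, Ccl8, Ccl11, Ccl12, Ccl17 and Ccl22. They were taken by symbol from the 22121 genes named on the arrays, by a rule that uses no measured value, although earlier results of these data were known when they were chosen. Each was measured by 1 probe set (a group of short probes for 1 transcript), and all 10 probe sets passed the filter on low values.

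Chemokines are small secreted proteins that draw leukocytes into tissue along a gradient. Inflammatory CC chemokines are made on demand by keratinocytes, fibroblasts, endothelial cells and leukocytes of injured skin, and they act through signaling receptors such as CCR1, CCR2 and CCR4. D6 binds the same ligands without classical signaling, takes them into the cell and degrades them, so that it removes the protein rather than the transcript. The phorbol ester TPA irritates skin when it is painted on, and skin that lacks D6 is known for an exaggerated inflammatory response to it.

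Transcripts were measured in whole back skin that had been shaved, from female mice of mixed strain 129–C57BL/6 aged 8 to 12 weeks. WT mice were set against D6-deficient mice. Skin received 3 applications of 50 μM TPA at intervals of 24 h and was taken 1, 2, 4 or 6 days after the last one. Day 0 stands for controls of each genotype that received acetone, the solvent of TPA, although their titles describe untreated skin. With 2 genotypes and 5 days there were 10 groups, and every one held 3 mice, given as biological replicates, with 1 Affymetrix array per mouse.

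All levels below are log2 intensities after robust multiarray analysis, so that a difference of 1 is a change of 2-fold, and levels are compared between arrays for 1 gene only. Array medians lay between 5.64 and 5.80 and single values between 2.26 and 14.98, and replicate arrays had a median SD of 0.187. The D6 gene, listed as Ccbp2, was lower on D6-deficient arrays on 2 of its 3 probe sets, by -1.41 (adjusted p = 1.3e-08) and -0.69 (adjusted p = 5.2e-05) over all days, whereas the third gave -0.07 (adjusted p = 0.80). Of the lists that mark skin, 6 keratinocyte genes summed to an intensity of at least 15991 and 5 fibroblast genes to at least 35451 on every array. A gene is said to pass where the adjusted p of limma was under 0.05, and to be called where it also differed by more than 3-fold.

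The genes lie in neighbouring groups. Ccl2, Ccl7, Ccl11, Ccl12 and Ccl8 follow each other on chromosome 11, and Ccl5, Ccl3 and Ccl4 form a separate group on the same chromosome. Ccl22 and Ccl17 lie near each other on chromosome 8. RefSeq gave the bases before the start of transcription for 5 of the 10 genes, Ccl3, Ccl8, Ccl12, Ccl17 and Ccl22. The change of Ccl3 after TPA was the largest of the 10. Ccl22 passed as lower in D6-deficient skin on day 2 and Ccl17 did not pass. The 250 bases upstream of Ccl3, Ccl17 and Ccl22 are shown in build GRCm38.p6. In this order the windows lie at chr11:83649379-83649628 (minus strand), chr8:94810203-94810452 and chr8:94745434-94745683 (plus strand). All read 5′ to 3′ toward the gene, and capitals mark matches to the motifs that were searched.

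Ccl3: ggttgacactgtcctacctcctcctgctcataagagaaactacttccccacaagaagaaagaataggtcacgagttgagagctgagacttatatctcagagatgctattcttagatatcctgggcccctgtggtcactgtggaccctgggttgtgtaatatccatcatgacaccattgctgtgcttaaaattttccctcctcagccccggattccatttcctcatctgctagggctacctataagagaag
Ccl17: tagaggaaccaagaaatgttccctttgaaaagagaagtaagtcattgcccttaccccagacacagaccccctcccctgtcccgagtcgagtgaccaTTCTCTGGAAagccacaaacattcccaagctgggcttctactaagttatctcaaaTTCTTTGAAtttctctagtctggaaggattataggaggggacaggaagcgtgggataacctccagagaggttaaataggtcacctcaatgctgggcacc
Ccl22: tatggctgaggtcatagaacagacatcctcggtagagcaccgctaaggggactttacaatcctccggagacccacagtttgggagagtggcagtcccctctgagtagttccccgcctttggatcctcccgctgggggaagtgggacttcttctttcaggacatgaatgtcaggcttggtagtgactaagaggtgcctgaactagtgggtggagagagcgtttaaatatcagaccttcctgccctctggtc

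Both strands were searched for the TPA response element TGANTCA, the NF-κB decamer, the TATA box TATAAA, the gamma-activated site TTCNNNGAA and a STAT6-type site that is 1 base longer. The windows of Ccl3 and Ccl22 held none of them. That of Ccl17 held TTCNNNGAA at -99 to -91 from the start and the STAT6-type site at -154 to -145, whereas Ccl8 and Ccl12 each held TATAAA, at -32 to -27 and -31 to -26. Of 32851 windows of the same length, 6.7% held TGANTCA, 7.3% the NF-κB decamer, 12.4% TATAAA, 7.0% TTCNNNGAA and 5.9% the STAT6-type site. A match describes letters in this window and is not a binding site.

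TPA raised 9 of these 10 chemokines, all but Ccl11, past the threshold on day 4 in WT skin. Of all tested probe sets 39.1% passed in that comparison, in either direction. Of the 9 chemokines Ccl2, Ccl3, Ccl4, Ccl7, Ccl12, Ccl17 and Ccl22 were called higher than on day 0 and had their highest mean on day 4. In D6-deficient skin Ccl2, Ccl3, Ccl4, Ccl5, Ccl7 and Ccl12 were already called higher on day 2, and on day 4 these 6 and Ccl22 were. On day 6 Ccl12 and Ccl17 were still called in WT skin and none was called in D6-deficient skin. In bulk skin, fewer cells of a type and less RNA per cell cannot be told apart.

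In WT skin 1 of the 10 was called higher on day 1 (Ccl17), against 0.93% of all tested probe sets. On day 2 it was 1 (Ccl3) against 1.2%, on day 4 it was 7 against 1.76%, and on day 6 it was 2 (Ccl12 and Ccl17) against 0.799%. The median change of the 10 on these days was 0.62, 0.82, 3.17 and 0.79, whereas the median of all tested probe sets stayed between -0.01 and 0.01. In D6-deficient skin the counts were 0 against 1.06% on day 1, 6 against 1.7% on day 2, 7 against 1.97% on day 4 and 0 against 0.888% on day 6, with medians of 0.60, 1.89, 2.67 and 0.39. Where limma called 0, 6 of the 10 on day 1 and 3 on day 6 had an unadjusted p under 0.05, and the methods' t-test also called 0. Such an unadjusted p in limma was reached by 16206 of the 36029 tested probe sets on day 1 and by 14849 on day 6. No chemokine was called lower than on day 0 in either genotype.

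**Figure D1:**
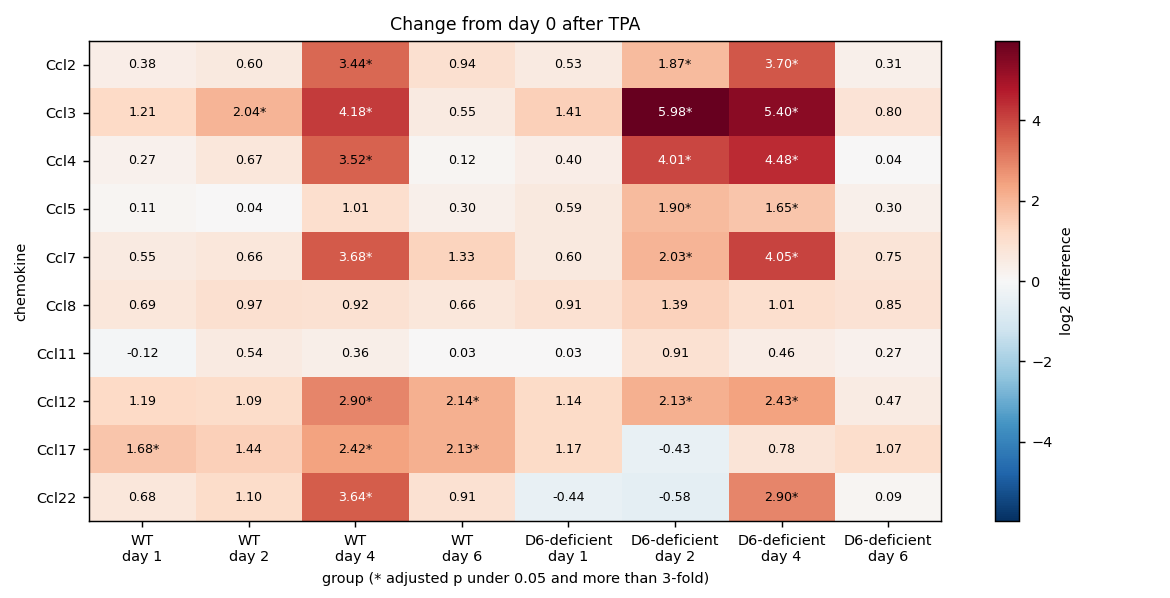
Change from day 0 after TPA (log2 difference) of each chemokine in WT and D6-deficient skin, with an asterisk where the adjusted p was under 0.05 and the change more than 3-fold. WT skin has 7 asterisks on day 4, and D6-deficient skin has 6 on day 2 and 7 on day 4, with the largest change, 5.98, in Ccl3.

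The genotypes differed mainly on day 2. On that day Ccl3 and Ccl4 were called higher in D6-deficient skin, Ccl2, Ccl5 and Ccl7 passed as higher by less than 3-fold, and Ccl22 passed as lower. The 2 called make up 2 of 10 against 0.572% of all tested probe sets, and the 6 that passed compare with 4.45%. The median difference of the 10 was 1.15 and that of all tested probe sets -0.02. The methods' t-test called the same number, 2, but 0 once its p-values were adjusted.

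Measured as the difference between the changes from day 0 to day 2, Ccl3, Ccl4 and Ccl5 were called as more strongly raised in D6-deficient skin and Ccl22 as less, 4 of 10 against 1.11% of all tested probe sets. With Ccl2, 5 passed, against 5.4%. This contrast shares its day 2 arrays with the comparison above and also carries the difference between the genotypes at day 0. On day 0 itself Ccl17 and Ccl22 lay higher on all 3 D6-deficient arrays than on the 3 WT arrays, by 0.91 (SE 0.41, adjusted p = 0.31) and 0.73 (SE 0.26, adjusted p = 0.16).

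On the other days limma called 0 of the 10 between the genotypes, against 0.122% of all tested probe sets on day 0, 0.0139% on day 1, 0.0777% on day 4 and 0.0167% on day 6. An unadjusted p under 0.05 was reached by 3, 0, 2 and 3 of the 10 on these days, and the methods' t-test called 0. Of the 36029 tested probe sets 5146, 2887, 3621 and 3015 reached such an unadjusted p in limma. Relative to day 0 limma likewise called 0 of the 10 on day 1 against 0.00278%, on day 4 against 0.153% and on day 6 against 0.00278%. There 1, 2 and 2 of the 10 had an unadjusted p under 0.05, and the methods' t-test called 0, 1 (Ccl17) and 0. Among the 36029 tested probe sets 3494, 3949 and 2886 had such an unadjusted p in limma. Relative to day 0 the methods' t-test subtracted the median of each genotype's controls as a constant. It thus left out the spread of the day 0 arrays, which limma included.

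**Figure D2:**
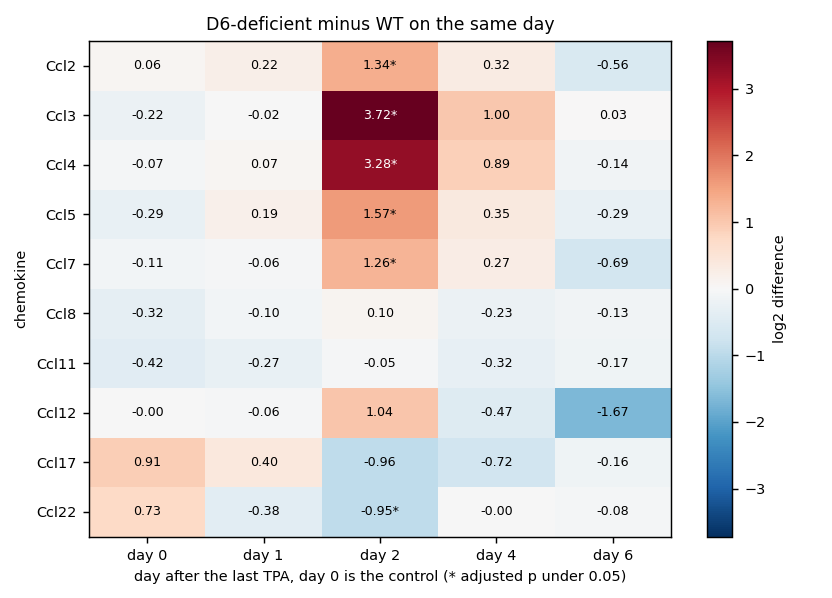
Difference between D6-deficient and WT skin on the same day (log2) for each chemokine, with an asterisk where the adjusted p was under 0.05. All 6 asterisks stand on day 2, 5 in genes that were higher in D6-deficient skin and 1 in Ccl22, which was lower at -0.95.

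Ccl3 and Ccl4, the macrophage inflammatory proteins that attract monocytes and T cells, had the largest differences of the 10 between the genotypes on day 2 and the largest changes in D6-deficient skin on days 2 and 4. Ccl3 read 4.05, 3.65 and 3.61 on the WT arrays of day 0 and 3.28, 3.50 and 3.87 on the D6-deficient ones. On day 1 it read 4.77, 4.59 and 5.59 in WT skin and 4.71, 4.84 and 5.34 in D6-deficient skin. Up to this day the genotypes overlapped.

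On day 2 Ccl3 read 4.79, 7.42 and 5.21 in WT skin against 9.51, 9.82 and 9.25 in D6-deficient skin. The genotypes no longer overlapped, and WT replicate 2 stood apart from the other WT arrays. The difference was 3.72, or 13.2-fold (SE 0.44, adjusted p = 5.9e-06), and without WT replicate 2 it was 4.53 (adjusted p = 2.1e-08). The rise of WT Ccl3 by day 2, 2.04 or 4.11-fold (adjusted p = 0.0013), likewise depended on that array and was 1.23 without it (adjusted p = 0.012), which is under 3-fold.

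On day 4 WT skin reached 7.57, 7.95 and 8.33, a rise from day 2 of 2.14 (adjusted p = 0.0014). D6-deficient skin, at 8.13, 9.68 and 9.05, did not pass against its own day 2 (-0.58, adjusted p = 0.44). The genotypes overlapped again and differed by 1.00 (95% confidence interval 0.09 to 1.92, adjusted p = 0.43). By day 6 Ccl3 had become 12.4-fold lower in WT skin and 24.3-fold lower in D6-deficient skin than on day 4 (adjusted p = 1.6e-06 and 2.6e-08), at between 4.07 and 4.67 over all 6 arrays. Its rise above day 0 had been 18.1-fold in WT skin on day 4 (adjusted p = 9.0e-08) and 63.1-fold in D6-deficient skin on day 2 (adjusted p = 5.9e-10). These folds start from day 0 means of 3.77 and 3.55, close to the filter on low values at 3.72. How far background set their size was not tested.

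Ccl4 differed between the genotypes on the same day as Ccl3, but in D6-deficient skin its mean was highest on day 4, at 9.98 after 9.51 on day 2, a change that did not pass (0.47, adjusted p = 0.28). On day 0 it lay between 5.31 and 5.73 on all 6 arrays and on day 1 between 5.72 and 6.04. On day 2 it read 5.65, 6.97 and 6.07 in WT skin and 9.18, 10.03 and 9.32 in D6-deficient skin. The groups did not overlap, the same WT replicate 2 was the highest WT array, and the difference was 3.28, or 9.73-fold (SE 0.27, adjusted p = 1.9e-08), or 3.65 without that array. In WT skin the rise by day 2 did not pass (0.67, adjusted p = 0.075), whereas in D6-deficient skin it was 16.1-fold (adjusted p = 2.0e-10).

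On day 4 Ccl4 read 8.73, 9.08 and 9.45 in WT skin and 9.59, 10.58 and 9.77 in D6-deficient skin. The D6-deficient arrays all lay above the WT ones, but the difference of 0.89 (95% confidence interval 0.33 to 1.46) did not pass (adjusted p = 0.16). By day 6 all 6 arrays were back between 5.29 and 5.88.

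Ccl5, also known as RANTES, which attracts T cells and monocytes, changed in D6-deficient skin on day 2 before it changed in WT skin. On day 0 it read 7.05, 8.05 and 7.25 in WT skin and 7.30, 7.14 and 7.05 in D6-deficient skin, and WT replicate 2 was the highest. On day 2 it read 7.63, 7.20 and 7.64 in WT skin, within the range of day 0, and 9.05, 8.54 and 9.60 in D6-deficient skin. All 3 D6-deficient arrays lay above the WT ones, by 1.58, or 2.98-fold (SE 0.25, adjusted p = 3.0e-04).

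By day 4 WT Ccl5 had risen too, to 8.44, 8.66 and 8.28 (1.01 above day 0, adjusted p = 0.0024), against 8.31, 9.05 and 9.07 in D6-deficient skin. The genotypes overlapped there, and the difference was 0.35 (95% confidence interval -0.17 to 0.87, adjusted p = 0.72). The D6-deficient changes of 3.74-fold on day 2 and 3.13-fold on day 4 lay close to the fold threshold. The second fell to 1.53 or 1.52 on the log2 scale, under 3-fold, without D6-deficient replicate 2 or 3 of day 4, with adjusted p = 1.7e-04 both times. Relative to day 0, the day 2 difference of Ccl5, 1.86 (adjusted p = 0.0022), fell to 1.56, under 3-fold, without WT replicate 2 of day 0 (adjusted p = 0.0087).

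**Figure D3:**
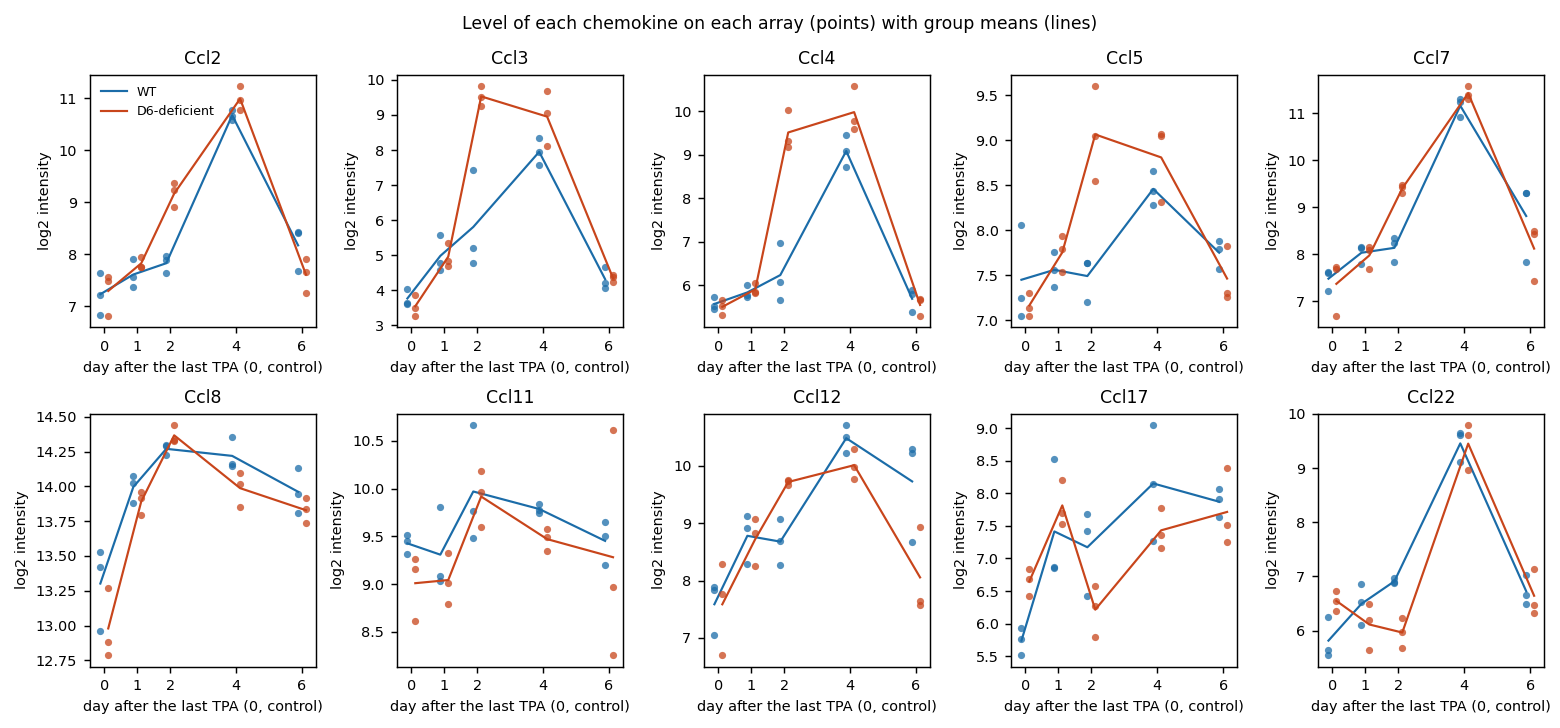
Level of each chemokine (log2 intensity) on each array against the day after the last TPA, where day 0 is the acetone control. Points are arrays, 3 for each genotype and day, and lines join the group means. On day 2 the D6-deficient points lie above the WT points in Ccl2, Ccl3, Ccl4, Ccl5, Ccl7, Ccl8 and Ccl12 and below them in Ccl22. Points that do not overlap are not a test, and how many of all tested probe sets separate like this was not counted. The limma differences of Ccl8 and Ccl12 did not pass (adjusted p = 0.81 and 0.18).

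Ccl2 and Ccl7, monocyte chemoattractants that act through CCR2, passed by day 2 in D6-deficient skin and by day 4 in WT skin. Ccl2 read 7.65, 7.22 and 6.82 on day 0 in WT skin and 7.49, 7.57 and 6.82 in D6-deficient skin, and on day 1 both genotypes lay between 7.36 and 7.96. On day 2 it read 7.96, 7.63 and 7.89 in WT skin and 9.37, 9.23 and 8.90 in D6-deficient skin. The groups were apart, by 1.34, or 2.53-fold (SE 0.23, adjusted p = 5.7e-04).

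On day 4 Ccl2 read 10.65, 10.59 and 10.78 in WT skin and 10.78, 11.24 and 10.96 in D6-deficient skin. WT Ccl2 thus rose by 2.85 between days 2 and 4 (adjusted p = 1.4e-08) and D6-deficient Ccl2 by 1.83 (adjusted p = 3.3e-06), to levels that differed by 0.32 between the genotypes (95% confidence interval -0.15 to 0.79, adjusted p = 0.72). Against day 0 these levels were higher by 3.44 and 3.70. By day 6 Ccl2 was 5.67-fold lower than on day 4 in WT skin and 10.5-fold lower in D6-deficient skin, and the mean in WT skin, 8.17, was still above day 0 (0.94, adjusted p = 0.0043) whereas that in D6-deficient skin, 7.61, did not pass (0.31, adjusted p = 0.32).

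Ccl7 ran beside Ccl2. On day 2 it read 8.35, 7.83 and 8.24 in WT skin and 9.46, 9.44 and 9.30 in D6-deficient skin. Every D6-deficient array lay above every WT array, by 1.26, or 2.40-fold (SE 0.31, adjusted p = 0.017). The adjusted p rose to 0.090 without WT replicate 2 and to 0.053 and 0.072 without D6-deficient replicates 1 and 2 of that day.

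On day 4 Ccl7 read 11.25, 10.92 and 11.31 in WT skin and 11.30, 11.58 and 11.39 in D6-deficient skin, 12.8-fold and 16.6-fold above day 0. The genotypes overlapped, with a difference of 0.27 (95% confidence interval -0.38 to 0.92, adjusted p = 0.88). On day 6 it read 9.30, 9.30 and 7.84 in WT skin and 8.50, 7.43 and 8.43 in D6-deficient skin. One WT array, replicate 3, lay within the D6-deficient range there.

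Ccl12, another CCR2 ligand and the neighbour of Ccl11 and Ccl8, had a different end of its course. On day 2 it read 9.08, 8.27 and 8.69 in WT skin and 9.68, 9.75 and 9.74 in D6-deficient skin, which were apart but did not pass (1.04, SE 0.41, adjusted p = 0.18). On day 4 it read 10.51, 10.23 and 10.71 in WT skin, 7.45-fold above day 0, and 9.77, 9.98 and 10.29 in D6-deficient skin, 5.38-fold above day 0.

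On day 6 Ccl12 read 10.29, 10.23 and 8.67 in WT skin and 8.94, 7.65 and 7.58 in D6-deficient skin. WT replicates 1 and 2 stayed at the level of day 4, whereas the D6-deficient mean fell by 1.96 from day 4 (adjusted p = 6.9e-04). The difference between the genotypes on day 6, -1.67 or 3.19-fold, was not past the threshold (SE 0.41, adjusted p = 0.11). There WT replicate 3 and D6-deficient replicate 1 overlapped. Without the former the difference was -2.20 (adjusted p = 0.030) and without the latter -2.12 (adjusted p = 0.038), and Ccl12 would then be called. Other settings went the other way. The difference was -1.40 without WT replicate 1 of day 6, and the adjusted p of limma was 0.93 with only the arrays of the contrast.

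Ccl8, a chemoattractant that in mice acts through CCR8, changed by less than 3-fold and was bright in every sample. It read 13.42, 13.53 and 12.96 in WT skin and 12.88, 13.27 and 12.79 in D6-deficient skin on day 0, and 14.29, 14.23 and 14.30 against 14.44, 14.33 and 14.34 on day 2. Every array of days 1 to 6 lay above every array of day 0, and the rise passed on each day in both genotypes, by 1.58-fold to 1.96-fold in WT skin and 1.80-fold to 2.62-fold in D6-deficient skin. The highest value, 14.44, lay close to the highest of any probe set on these arrays, 14.98, and whether the signal is still proportional to abundance there was not tested. The genotypes did not pass on any day, with a day 2 difference of 0.10 (95% confidence interval -0.17 to 0.37, adjusted p = 0.81).

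Ccl11, or eotaxin, the CCR3 ligand that attracts eosinophils, did not pass in any comparison. Its largest change was in D6-deficient skin on day 2, where it read 10.18, 9.97 and 9.60 after 9.16, 9.26 and 8.61 on day 0. These groups did not overlap, and the change was 0.91 (SE 0.37, adjusted p = 0.055). WT skin read 9.76, 9.48 and 10.66 on day 2, where the genotypes overlapped and differed by -0.05 (95% confidence interval -0.81 to 0.71, adjusted p = 0.97). The D6-deficient arrays of day 6 spread most, at 8.97, 8.26 and 10.62.

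Ccl17 and Ccl22, the CCR4 ligands that attract T cells and are made largely by dendritic cells and macrophages, had lower means in D6-deficient than in WT skin on day 2, and of the pair Ccl22 passed whereas Ccl17 did not. Ccl22 read 6.97, 6.87 and 6.89 in WT skin on that day and 6.24, 5.68 and 5.98 in D6-deficient skin. Every D6-deficient array lay below every WT array, with a difference of -0.95, or 1.93-fold (SE 0.26, adjusted p = 0.032). The adjusted p lay between 0.072 and 0.19 without any 1 of WT replicates 1, 2 and 3 or D6-deficient replicates 2 and 3 of day 2.

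On day 0 Ccl22 had read 5.55, 5.64 and 6.25 in WT skin and 6.73, 6.36 and 6.55 in D6-deficient skin. WT Ccl22 had therefore risen by 1.10 by day 2 (adjusted p = 0.0026) and D6-deficient Ccl22 had changed by -0.58 (adjusted p = 0.076), a difference of -1.68 between the changes (SE 0.36, adjusted p = 0.0060). It was -1.55 without WT replicate 1 of day 0 and -1.54 without D6-deficient replicate 2 of day 2, under 3-fold. On day 4 Ccl22 read 9.65, 9.61 and 9.11 in WT skin and 9.79, 8.96 and 9.60 in D6-deficient skin, 12.5-fold and 7.48-fold above day 0, and the genotypes overlapped. By day 6 it was 6.63-fold and 7.01-fold lower than on day 4.

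Ccl17 read 5.76, 5.52 and 5.93 in WT skin on day 0 and 6.68, 6.83 and 6.43 in D6-deficient skin. On day 1 it read 6.86, 8.53 and 6.86 in WT skin and 8.21, 7.71 and 7.53 in D6-deficient skin. WT replicate 2 was the highest array of that day, and the WT rise of 3.20-fold (adjusted p = 0.0043) was 1.12 on the log2 scale without it, under 3-fold, and 1.57 without WT replicate 2 of day 0.

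On day 2 Ccl17 read 7.42, 6.42 and 7.68 in WT skin and 5.80, 6.27 and 6.57 in D6-deficient skin. The D6-deficient level had fallen by 1.60 from day 1, or 3.03-fold (SE 0.41, adjusted p = 0.013), and rose again by 1.22 to day 4 (adjusted p = 0.045). The genotypes overlapped on day 2 through WT replicate 2, and the difference of -0.96 did not pass (SE 0.41, adjusted p = 0.24), nor did the difference between the changes from day 0, -1.87 (SE 0.58, adjusted p = 0.062), which reached -2.25 without that array (adjusted p = 0.026). On day 4 WT skin read 8.14, 9.05 and 7.28, 5.33-fold above day 0, and D6-deficient skin 7.37, 7.16 and 7.77, not past the threshold against its own day 0 (0.78, adjusted p = 0.13). On day 6 WT Ccl17 was still 4.39-fold above day 0 (adjusted p = 7.0e-04), at 8.06, 7.64 and 7.91. D6-deficient Ccl17 read 7.25, 7.51 and 8.39 on day 6, 1.07 above its own, higher day 0 (adjusted p = 0.051), and the genotypes overlapped on day 6 with a difference of -0.16 (adjusted p = 0.95).

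**Figure D4:**
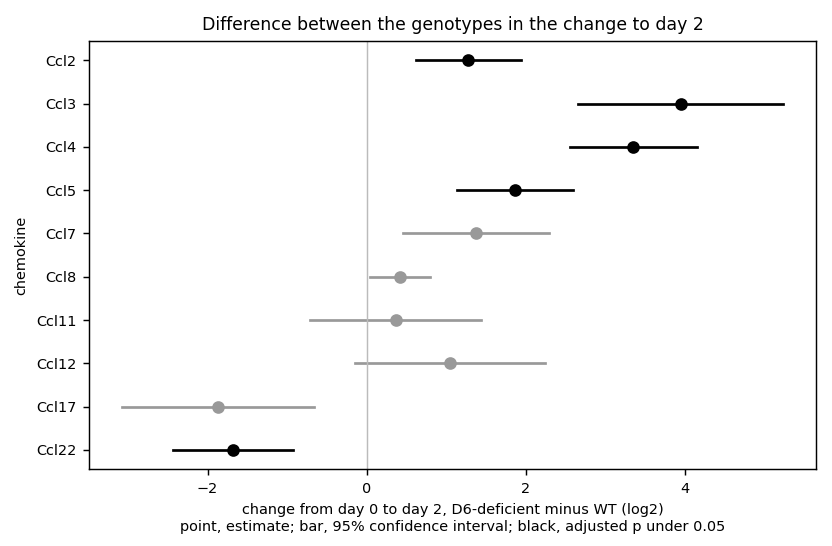
Change from day 0 to day 2 in D6-deficient minus that in WT skin (log2) for each chemokine, as points with 95% confidence intervals, in black where the adjusted p was under 0.05. Ccl2, Ccl3, Ccl4 and Ccl5 lie to the right of 0 and Ccl22 to the left. The intervals of Ccl17 (-3.07 to -0.67), Ccl7 (0.46 to 2.29) and Ccl8 (0.04 to 0.80) also exclude 0, but their adjusted p were 0.062, 0.074 and 0.23.

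Some pairs of chemokines ran together more closely than others. Over the 30 arrays Pearson's r was 0.98 between Ccl2 and Ccl7 and 0.97 between Ccl3 and Ccl4, against 0.30 or less between Ccl17 and each of Ccl2, Ccl3, Ccl4 and Ccl5. Pairs from different chromosome groups also reached high values, such as 0.90 between Ccl2 and Ccl4 and 0.83 between Ccl2 and Ccl22. The arrays share the groups and the course after TPA, so group means were also removed. Within groups r was still 0.85 between Ccl2 and Ccl7, 0.83 between Ccl3 and Ccl4, 0.80 between Ccl7 and Ccl12 and 0.57 between Ccl17 and Ccl22, pairs that lie in the same chromosome group. Other pairs of a chromosome group did not run together, with -0.16 between Ccl3 and Ccl5, -0.32 between Ccl4 and Ccl5 and -0.10 between Ccl11 and Ccl12, and Ccl11 and Ccl17, from different groups, gave 0.50. It was -0.55 between Ccl4 and Ccl22 and -0.50 between Ccl3 and Ccl17. These values describe 30 arrays that share a normalization and carry no test.

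**Figure D5:**
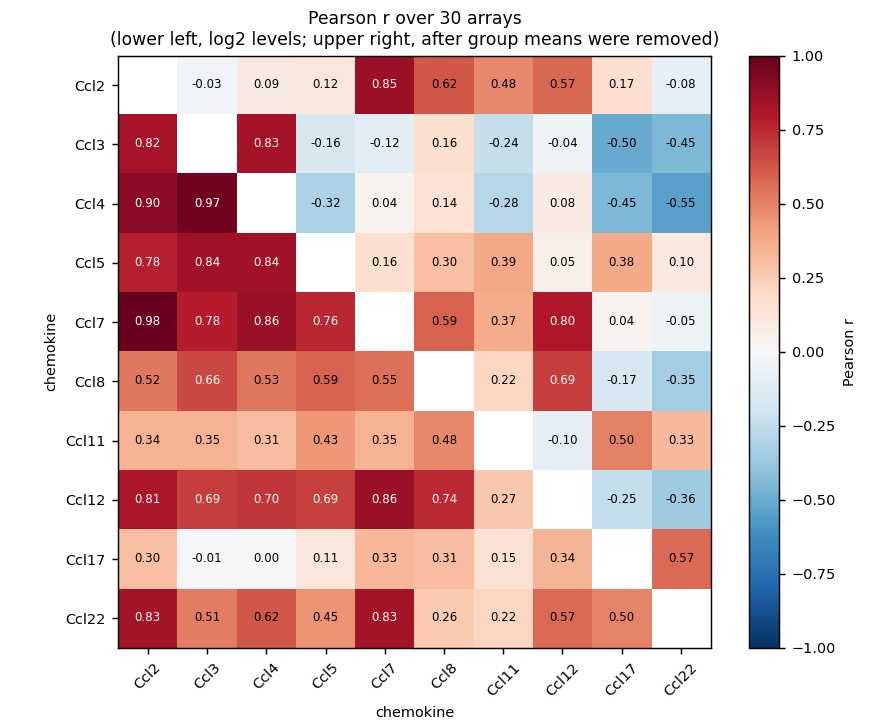
Pearson's r between the chemokines over the 30 arrays, for log2 levels in the lower left and after group means were removed in the upper right. Ccl2 with Ccl7 (0.98 and 0.85) and Ccl3 with Ccl4 (0.97 and 0.83) stay close in both, whereas Ccl3 and Ccl4 against Ccl17 and Ccl22 are near 0 to 0.62 in the first and -0.45 to -0.55 in the second.

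The other genes whose levels ran most like each chemokine over the 30 arrays differed among the chemokines. For Ccl3 they were Irg1, Clec4e and Clec4d (r = 0.97, 0.97 and 0.96) and for Ccl4 Clec4e, Trem1 and Cxcl3 (r = 0.98, 0.98 and 0.98). For Ccl2 they were Msr1, Il18rap and Fxyd5 (r = 0.96 to 0.97) and for Ccl7 Hcls1, Msr1 and Nipsnap3b (r = 0.96 each). Ccl5 ran most like Zbp1 and Parp9 (r = 0.93 and 0.92) and Ccl22 like Il13ra2, Ccr7 and Traf1 (r = 0.95 each). For Ccl12 they were Rgs19, Pitpna and Capza1 (r = 0.86 to 0.89), for Ccl8 Galk2, Atp6v1b2 and 1110059E24Rik (r = 0.90 to 0.91), for Ccl17 Chrna7, Zmynd15 and Tnfrsf4 (r = 0.77 to 0.80) and for Ccl11 Dtnbp1, A730020M07Rik and Col22a1 (r = 0.74 to 0.79).

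Signaling receptors of these ligands changed in part on the same days. Ccr1 was called higher in WT skin on day 4 and in D6-deficient skin on days 2 and 4. Ccr3, the receptor of Ccl11, was called in WT skin on day 2 (1.63, adjusted p = 4.1e-04). Ccr1, a receptor of Ccl3 and Ccl5, rose by 3.35 in WT skin on day 4 (adjusted p = 7.9e-09) and by 2.03 and 3.13 in D6-deficient skin on days 2 and 4 (adjusted p = 1.1e-05 and 1.5e-08).

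Between the genotypes on day 2, Ccr1 passed as higher in D6-deficient skin and Ccr2, Ccr3, Ccr4 and Ccr8 did not pass. Ccr1 had means of 10.1 in D6-deficient and 8.60 in WT skin (SE of the difference 0.30, adjusted p = 0.0031), but its other probe set differed by 0.87 (adjusted p = 0.35). Ccr4, the receptor of Ccl17 and Ccl22, lay between 3.63 and 4.28 in every group mean, close to the filter on low values at 3.72, and did not pass between the genotypes. For Ccr2, the receptor of Ccl2, Ccl7 and Ccl12, the probe sets disagreed. The brightest changed by 0.61 in D6-deficient skin on day 2 (adjusted p = 0.029), whereas another was called there (2.06, adjusted p = 3.8e-05), and none of its 4 probe sets passed between the genotypes on day 2.

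Of the other chemoattractant-binding proteins that do not signal classically, Ccrl2 was called higher on day 2 in D6-deficient skin (1.68, adjusted p = 1.9e-06) and passed against WT on that day (1.26, SE 0.22, adjusted p = 7.7e-04). Among 14 other CC chemokines on the list, 10 probe sets were tested, and on day 2 between the genotypes 0 were called higher and 1 lower, with a median of -0.32. The one lower was Ccl20, which attracts CCR6-bearing cells, with a mean of 8.75 in WT skin and 6.54 in D6-deficient skin (-2.20, SE 0.37, adjusted p = 5.1e-04). Of the 10 ligands of D6, 2 were called higher and 0 lower in that comparison.

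Leukocyte markers moved in part on the same days. In D6-deficient skin 3 of 8 neutrophil genes were already called higher on day 1, when 0 chemokines were called. The summed intensity of 6 T cell genes in WT skin ran from 1117 to 1461 on day 1 and from 886.7 to 973.8 on day 4. The summed intensity of 8 neutrophil genes ran from 647.0 to 1245 on the WT arrays of day 2 and from 2685 to 9156 on the D6-deficient ones, 5 of 8 were called higher in D6-deficient skin, and WT replicate 2, which stood apart in Ccl3 and Ccl4, gave the 1245. The sum of 8 monocyte and macrophage genes ran from 25683 to 28798 in WT and from 35052 to 37209 in D6-deficient skin on day 2, with 2 of 8 called higher. The sum of 7 dendritic and Langerhans cell genes ran from 1256 to 1646 in WT and from 414.1 to 575.2 in D6-deficient skin on that day, with 2 of 7 called lower, although the median difference over the 7 was 0.09. On day 4, when 7 chemokines were called higher in WT skin, the neutrophil sum there ran from 3209 to 6375 after 388.7 to 462.6 on day 0. The monocyte and macrophage sum in WT skin ran from 27062 to 32716 on day 4 and from 28919 to 31105 on day 0, which overlap. Yet 5 of its 8 genes passed as higher on day 4, 2 of them called, and 3 as lower, with a median change of 0.87. The lymphatic endothelial sum in WT skin ran from 4491 to 7768 after 2028 to 3082, but only 1 of its 4 genes passed. That gene was called higher, and the median change of the 4 was 0.07. The keratinocyte sum was lower on day 4, at 25778 to 31498 after 34219 to 35970 in WT skin and 15991 to 22313 after 46428 to 48981 in D6-deficient skin. In WT skin 2 of its 6 genes were called lower and 1 passed as higher, with a median change of -0.13. Of 6 keratinocyte, 5 fibroblast, 4 lymphatic endothelial, 6 T cell, 6 mast cell and 2 eosinophil genes tested, 0 were called between the genotypes on day 2 and 1 T cell gene passed as higher. The part of these cells in the chemokine levels was not tested.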

How the data were processed

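RNA from whole back skin was hybridised to Affymetrix mouse genome arrays, 30 in all. The authors normalized the arrays by RMA (background correction, quantile normalization, probe summary) in GeneSpring GX and deposited linear intensity values; their log2 was taken here. The 10 members and all gene lists were chosen with earlier results of these data known. Members were found by symbol, and the rule for names covered all 10, up to 4 genes of each list and the 3 genes with the highest r. Some genes that this rule covers are not reported here.

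Of 45037 probe sets without 64 controls, 9008 (20%) with the lowest mean were left out and 36029 tested with limma 3.58.1 in R 4.3.3: 1 mean per group over all 30 arrays, eBayes, with p-values adjusted by Benjamini-Hochberg for each contrast across all probe sets tested. The code was tested on simulated data. Marker lists covered keratinocytes, fibroblasts, lymphatic endothelium, neutrophils, monocytes and macrophages, dendritic and Langerhans cells, T cells, mast cells and eosinophils. Alternatives were median centring, no filter, no fold threshold, the methods' t-test, fewer arrays, a replicate block, array sets, a variance trend and leaving out single arrays. A mean over probe sets coincides with the values given, since each member has 1. Figures were drawn with matplotlib 3.10.9. With 3 arrays a group, an exact permutation test cannot give a p under 0.1; the number of arrays limits the precision.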

Additional observations from a re-analysis of the deposited data

Results flagged for a closer look

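The change from day 0 to day 2 differed between the genotypes, by the test of that difference in limma, for 5 of the 10 chemokines. In D6-deficient skin the change was larger by 3.94 in Ccl3 (log2, SE 0.63, adjusted p = 4.4e-04), by 3.35 in Ccl4 (SE 0.39, adjusted p = 9.5e-06), by 1.86 in Ccl5 (SE 0.35, adjusted p = 0.0022) and by 1.28 in Ccl2 (SE 0.32, adjusted p = 0.018). In Ccl22 it was smaller, at -1.68 (SE 0.36, adjusted p = 0.0060). For Ccl2 the adjusted p rose to 0.060 without WT replicate 1 of day 0 and to 0.065 without D6-deficient replicate 3 of day 0.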

How the results depend on the processing

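With no fold threshold the number of chemokines called became 4 in WT skin on days 1 and 2, 6 on day 6, 4 and 1 in D6-deficient skin on days 1 and 6, and 6 between the genotypes on day 2. Of all tested probe sets 24%, 26.1% and 22.1% passed in WT skin on days 1, 2 and 6. In D6-deficient skin 36.3% and 31.7% passed on days 1 and 6, and between the genotypes 4.45% on day 2. The methods' t-test called 0 in WT skin on day 2 and 1 between the genotypes on day 4 relative to day 0. After adjustment it called 0 in WT skin on days 1, 2 and 6, 0 between the genotypes on day 2 and 2 on day 2 relative to day 0. The counts at other comparisons and settings lay within 1.5 times. Without 1 array in turn the count was 0 to 1 in WT skin on day 1 and 0 to 1 between the genotypes on day 6, where Ccl12 was the gene called; the D6-deficient count on day 4 was 6 to 7, that on day 2 between the genotypes 2 to 3, and relative to day 0 it was 3 to 5. In WT skin on day 2 Ccl3 was called, but without WT replicate 2 it was Ccl17. The day 2 difference of Ccl11, -0.05, turned to 0.29 without WT replicate 3 and to 0.10 without D6-deficient replicate 3, and its range without single arrays was -0.30 to 0.29.

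Replicate numbers were not used as pairs in the main fit. Deviations of same-numbered arrays correlated between -0.29 and 0.38, and in 0 of 13 comparisons were all 3 pairs over 0.1. Between the genotypes on day 6 they gave 0.27, 0.38 and 0.08, and such values cannot show that the samples were unpaired. With the replicate block no count moved by over 1.5 times (2 between the genotypes on day 2, 7 in WT skin on day 4), and 2 single values crossed the threshold, Ccl2 and Ccl12 in WT skin on day 2 (adjusted p = 0.047 and 0.045). Clustering by hybridisation controls was set to give 2 sets, of 13 and 17 arrays, so the split itself does not show that the arrays fell into batches. Within the first and second set the day 2 difference was 4.88 and 2.93 for Ccl3, 3.96 and 2.80 for Ccl4 and -1.01 and -0.90 for Ccl22. These values set 2 D6-deficient arrays against 1 WT array in the first set and 1 against 2 in the second. What the sets stand for was not tested.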
